A study of Arabidopsis thaliana with 8 samples.

Results

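The data compared here are the transcript profiles of clf-28 and wild-type Arabidopsis thaliana seedlings, 4 of the 8 arrays of a study of Polycomb mutants. The 2 arrays labelled clf-28 and the 2 labelled wild-type were chosen by genotype alone, and no measured value entered that choice. Wild type was Columbia (Col-0), stock N1092, and clf-28 was the insertion line SALK_021003. Both were measured as whole plants 10 days old at growth stage 1.03, from stratified seed on agar plates, with no treatment. The other genotypes of the study serve as points of reference: swn-7 (line SALK_050195), also 10 days old, and the double mutant of clf-28 and swn-7, 12 days old. All mutants were T-DNA insertion lines, 1 line per genotype. The labels do not say whether arrays of the same genotype came from different cultures, so p-values cover only how far these samples spread, which may be technical.

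CURLY LEAF (CLF) encodes a histone methyltransferase of the Polycomb repressive complex, which places trimethyl marks on lysine 27 of histone H3 and keeps many developmental genes silent in tissues where they are not needed. SWINGER (SWN) encodes a related methyltransferase that shares much of this work. Plants without CLF are known for small, upward-curled leaves and early flowering, and for expression of floral regulators in leaves. The probe annotation used here names neither CLF nor SWN, and the labels were not checked through the mutated gene. Floral MADS-box genes are likewise not named in it, and what follows covers the genes that it does name.

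Signals are the deposited array intensities of Affymetrix ATH1 probe sets, in arbitrary units on a linear scale. Values at or below a floor of 10 were set to the floor before log2 was taken, and a gene at the floor has no measured level. Of 22746 probe sets 17332 were tested, because they lay above the floor on at least 2 of the 8 arrays. On each array 69.1% to 71.6% of probe sets exceeded the floor. The 5 tested genes of photosynthesis lay far above the floor on all 4 arrays, among them RCA, the activase of the carbon-fixing enzyme Rubisco, at 3808 to 5624. The late-embryo gene LEA18 and the embryo regulator BBM lay at the floor on all 4. In whole seedlings, fewer cells of a type and less RNA per cell cannot be told apart.

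With all 8 arrays fitted, few transcripts passed the threshold in clf-28, and more of them were higher than lower. Of 17332 probe sets 21 passed a limma adjusted p of 0.05 (0.121% of those tested), 18 higher in clf-28 (0.104%) and 3 lower (0.0173%), all by at least 2-fold. That balance turned when a wild-type array was left out: there were 8 higher and 14 lower calls without replicate 1, and 183 higher and 401 lower without replicate 2. Without adjustment 2163 probe sets (12.5%) had a p below 0.05. Wild type was at the floor on both arrays for 8 of the 18 that rose, and on 1 array for 1 more. The median signal of these 18 was 11.9 in wild type, 105 in clf-28 and 10.4 in swn-7. Of the 21, 7 belong to a single named gene.

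SWEET10, which encodes a sugar transporter of the plasma membrane, gave signals of 158 and 143 on the clf-28 arrays and lay at the floor on both wild-type arrays. It also lay at the floor on both swn-7 arrays. The groups did not overlap, and the level in clf-28 was at least 15.0-fold that of wild type, a log2 change of 3.91 ± 0.19 (SE, n = 2) with a limma adjusted p of 6.48e-04. The floor sets the spread of its wild-type arrays to 0, and with no floor SWEET10 had a log2 change of 5.24 (SE 0.75) and did not pass (limma adjusted p = 0.0569).

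AT1G09500, a relative of cinnamyl-alcohol dehydrogenases, gave 160 and 166 in clf-28 against 13.6 and 17.1 in wild type. It rose 10.7-fold (log2 3.42, SE 0.21, limma adjusted p = 0.00275). AT3G19550 gave 111 and 130 in clf-28 against 12.2 and 13.7 in wild type, a 9.30-fold rise (log2 3.22, SE 0.21, limma adjusted p = 0.00287). In both genes the wild-type arrays lay just above the floor and the clf-28 arrays close together.

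AT1G03710, which encodes a cystatin-like protein, gave 53.8 and 58.5 in clf-28 and was at the floor on both wild-type arrays. The rise was at least 5.61-fold, with a log2 change of 2.49 (SE 0.18) and a limma adjusted p of 0.00422. AT5G39220, of the alpha/beta-hydrolase superfamily, gave 74.0 and 105 in clf-28 against 14.4 and 12.1 in wild type (6.70-fold, log2 2.74, SE 0.25, limma adjusted p = 0.0144). AT5G39520 had the widest spread within clf-28, 158 and 273, against 19.9 and 26.6 in wild type. The rise was 9.04-fold (log2 3.18, SE 0.34, limma adjusted p = 0.0327). Its lower clf-28 array still lay 2.57 above the higher wild-type array on the log2 scale.

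AT4G01390, whose protein belongs to the TRAF-like (MATH domain) family, was the 1 named gene that fell. It gave 27.4 and 34.1 in clf-28 against 147 and 106 in wild type, a 4.07-fold fall (log2 -2.02, SE 0.23, limma adjusted p = 0.0370). Its swn-7 arrays gave 61.0 and 60.8, between the other genotypes.

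**Figure D1:**
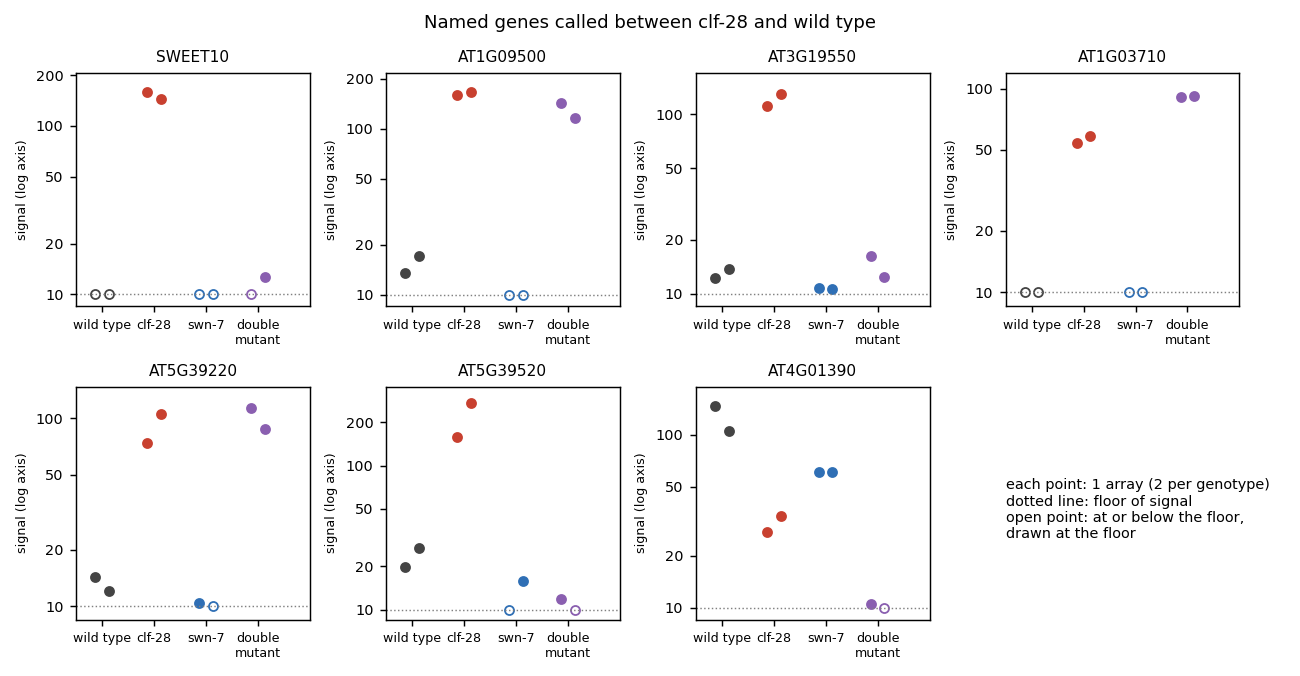
Signal on a log axis for the 7 named genes that passed between clf-28 and wild type, with 1 point per array and 2 arrays per genotype. Open points lie at or below the floor of 10, drawn as a dotted line. In the 6 genes that rose, both clf-28 arrays stand above all wild-type and swn-7 arrays, and the double-mutant arrays are high in AT1G09500, AT1G03710 and AT5G39220 and low in SWEET10, AT3G19550 and AT5G39520. In AT4G01390, which fell, the double-mutant arrays lie at or close to the floor.

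The other 14 called probe sets have no single gene in the annotation used here, 12 of them higher and 2 lower. Probe set 254595_at, the first by p, gave 160 and 166 in clf-28, with all wild-type and swn-7 arrays at the floor (log2 4.03, SE 0.18, limma adjusted p = 6.48e-04). Probe set 267129_at, the next of these 12, gave 145 and 155 against 21.5 and 23.4 in wild type (log2 2.74, SE 0.20, limma adjusted p = 0.00458). The 12 rose by at least 2.80-fold to at least 16.3-fold, both being lower bounds because wild type was at the floor. The 2 that fell were 247095_at, at 34.8 and 34.2 in clf-28 against 138 and 251 in wild type (log2 -2.43, SE 0.27, limma adjusted p = 0.0336), and 255344_s_at, at 22.9 and 26.7 against 87.0 and 75.6 (log2 -1.71, SE 0.20, limma adjusted p = 0.0388). The name of 255344_s_at marks it as a set whose probes can match several genes. These 4 were picked for display after their values were seen.

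The wild-type arrays differed from each other more than the arrays of any other genotype. Between them 1059 of 17332 probe sets differed by 2-fold or more, against 161 between the clf-28 arrays and 357 between the swn-7 arrays. The number of higher and lower values therefore depended on which wild-type array was used. Against wild type replicate 1, the clf-28 mean was at least 2-fold higher for 477 probe sets and at least 2-fold lower for 845. Against wild type replicate 2 the same counts were 205 higher and 174 lower. Against both, 108 were higher and 86 lower, and 4 lay 2-fold above 1 wild-type array and 2-fold below the other.

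All 21 called probe sets kept their direction against each wild-type array. In none of them were the wild-type arrays 2-fold apart. For SWEET10 and AT1G03710 the log2 change was the same against either array, because both were at the floor. AT1G09500 differed by 3.59 from replicate 1 and by 3.25 from replicate 2, and AT3G19550 by 3.30 and 3.13. AT5G39220 differed by 2.62 and 2.87, AT5G39520 by 3.39 and 2.97, and AT4G01390 by -2.26 and -1.79, all on the log2 scale. In each of these genes the spread between the wild-type arrays was small beside the change. The calls were made on these same arrays and favour such genes, so this is a description and not a separate check.

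**Figure D2:**
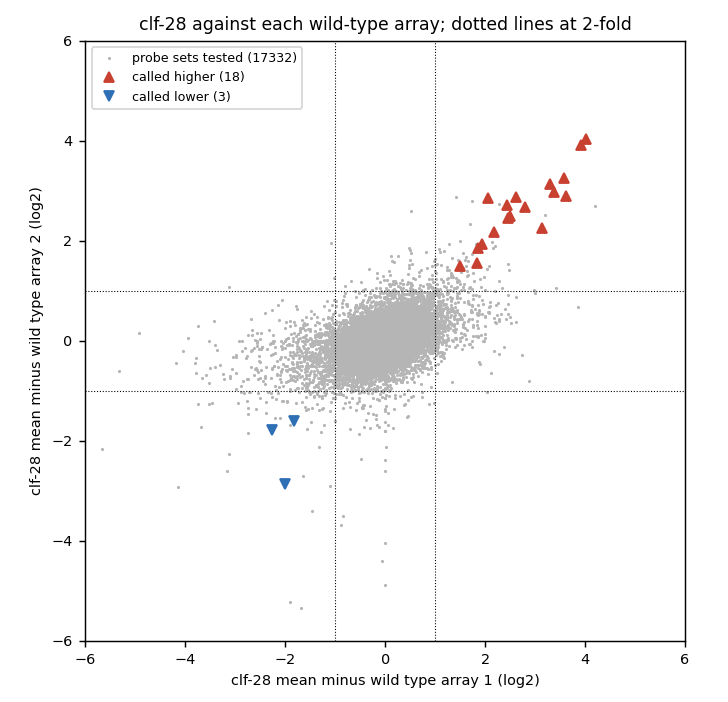
Log2 difference of the clf-28 mean from wild type replicate 1 (horizontal) and from wild type replicate 2 (vertical) for the 17332 probe sets tested, with dotted lines at 2-fold. Both axes share the clf-28 arrays. The 18 called rises and 3 called falls lie beyond 2-fold on both axes, while many other probe sets lie beyond 2-fold on the horizontal axis alone.

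Swn-7 is a reference of the same age on other arrays. Clf-28 was set against swn-7 in the same fit, and 18 probe sets passed, 17 higher in clf-28 (0.0981%) and 1 lower (0.00577%). This comparison uses the same clf-28 arrays as the one with wild type, so the values of both are given side by side and their overlap is no independent evidence. Of the 18 probe sets that rose against wild type, 14 also passed against swn-7. In all 18, both clf-28 arrays lay at least 2-fold above both swn-7 arrays, as did 0.45% of all probe sets tested. Of the 3 that fell, 0 passed against swn-7, and 0 lay 2-fold below both swn-7 arrays, as did 0.115% of all.

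Among the named genes, AT5G39520 exceeded its swn-7 level at least 16.5-fold (log2 4.05, SE 0.34, limma adjusted p = 0.00755). AT1G09500 did so at least 16.3-fold (log2 4.03, SE 0.21, limma adjusted p = 8.37e-04), and SWEET10 at least 15.0-fold (log2 3.91, limma adjusted p = 6.48e-04). AT3G19550 was 11.2-fold higher (log2 3.49, limma adjusted p = 0.00160), AT5G39220 at least 8.68-fold (log2 3.12, limma adjusted p = 0.00652) and AT1G03710 at least 5.61-fold (log2 2.49, limma adjusted p = 0.00422). AT4G01390 did not pass, with a log2 difference of -0.99 (SE 0.23, limma adjusted p = 0.276).

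In the double mutant, these genes went different ways. AT1G09500 gave 142 and 115, AT1G03710 gave 90.7 and 91.7, and AT5G39220 gave 113 and 87.7. AT3G19550 gave 16.3 and 12.4, close to its wild-type signals. SWEET10 was at the floor on 1 double-mutant array and gave 12.8 on the other, and AT5G39520 was at the floor on 1 and gave 11.8 on the other. AT4G01390, which fell in clf-28, was lower still, at 10.4 on 1 double-mutant array and the floor on the other. The double mutant was 2 days older, so the genotype's part in its values and that of age cannot be told apart.

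Beyond the calls, a count without a test asked how many probe sets had both clf-28 arrays at least 2-fold above, or below, both wild-type arrays. There were 61 above (0.352% of those tested) and 48 below (0.277%). All 21 called probe sets are among them. The median log2 change of the 61 was 1.73 against wild type and 1.36 against swn-7, and that of the 48 was -1.76 against wild type and -0.43 against swn-7. Over all probe sets tested, the medians were 0.00021 and 0.01. The wild-type arrays were 2-fold apart in 4 of the 61 and in 16 of the 48, beside 1059 of all 17332 probe sets tested. Wild type replicate 1 was the higher of the 2 wild-type arrays in 35 of the 48 and in 15 of the 61. In 11 of the 61 both wild-type arrays were at the floor. The same count over all probe sets was not made. The part of the wild-type spread in the 48 lower probe sets was not tested.

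Among uncalled genes, 10 stood highest above both wild-type arrays, and none of the values in this paragraph passed the test. AT3G28500, which encodes an acidic ribosomal P2 protein, gave 116 and 94.6 in clf-28 against 23.8 and 26.9 in wild type (log2 2.05, SE 0.31, limma adjusted p = 0.0884). Its double-mutant arrays were higher still, at 360 and 515. UGT76E12, a glycosyltransferase gene, gave 70.1 and 68.8 in clf-28, with 20.8 on wild type replicate 1 and the floor on replicate 2 (log2 2.27, SE 0.38, limma adjusted p = 0.119). BGLU45, a beta-glucosidase gene, gave 75.3 and 73.9 against 21.0 and 24.4 (log2 1.72, SE 0.34, limma adjusted p = 0.173), and 11.9 and 13.5 in swn-7. Both UGT76E12 and BGLU45 were tight in clf-28, and UGT76E12 was at the floor on both swn-7 arrays.

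AT5G60140, of the B3 family of transcription factors, gave 30.7 and 30.2 in clf-28. AT5G12270, of the 2-oxoglutarate-dependent oxygenases, gave 37.4 and 29.4. Both genes were at the floor on all 4 wild-type and swn-7 arrays (limma adjusted p = 0.0737 and 0.0712 against wild type). AT1G12010, an ACC oxidase gene of ethylene synthesis, gave 219 and 260 against 81.5 and 70.8 (log2 1.65, SE 0.24, limma adjusted p = 0.0850), and 63.9 and 92.3 in swn-7. The swn-7 values of AT1G12010 spanned those of wild type.

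In 2 of the 10, swn-7 lay close to clf-28. AT2G39920 gave 48.3 and 47.4 in clf-28, 29.5 and 40.2 in swn-7, and 16.3 and 17.4 in wild type. AT4G16000 gave 39.2 and 42.9 in clf-28 and 30.9 and 44.3 in swn-7, with 15.3 on wild type replicate 2 and the floor on replicate 1. The last 2 had a wide spread between the clf-28 arrays: AT4G26010, a class III peroxidase gene, gave 101 and 192 against 39.3 and 36.5 in wild type, and AT1G52060, a jacalin-type lectin gene, gave 80.0 and 123 against 32.5 and 31.3. The root-hair genes EXPA7 and EXPA18 were also higher on clf-28 replicate 2 (46.1 and 65.1) than on replicate 1 (30.7 and 36.3). AT5G48940, the other tested gene of the root list, differed little between them (14.4 and 13.2). In swn-7, replicate 2 was likewise the higher for EXPA7 (28.1 against 12.1), EXPA18 (30.6 against 23.1), AT4G26010 (77.2 against 28.3) and AT1G52060 (50.5 against 30.5). It was the lower for AT5G48940 (15.0 against 20.3). Any link of the root genes to the peroxidase and lectin values was not tested.

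The 10 uncalled genes lowest below wild type had another pattern, with swn-7 often near clf-28. AT5G03350, a legume-type lectin gene, gave 56.6 and 44.7 in clf-28 against 884 and 382 in wild type, and 144 and 52.9 in swn-7. Its log2 difference from wild type was -3.53 (SE 0.52, limma adjusted p = 0.0849), and that from swn-7 was -0.79 (limma adjusted p = 0.759). AT2G41090, a calmodulin-like gene, gave 390 and 283 in clf-28, 1525 and 968 in wild type, and 643 and 516 in swn-7 (log2 -1.87, SE 0.26, limma adjusted p = 0.0737). AT2G25510 gave 847 and 873 in clf-28, 3199 and 2780 in wild type, and 1579 and 1865 in swn-7 (log2 -1.79, SE 0.27, limma adjusted p = 0.0891). In AT2G41090 and AT2G25510 the swn-7 arrays lay between clf-28 and wild type, while in AT5G03350 they overlapped clf-28.

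EXLB1, an expansin-like cell wall gene, gave 54.0 and 49.4 in clf-28 and 43.8 and 56.2 in swn-7, against 269 and 141 in wild type. AT2G34510 gave 104 and 85.0 in clf-28 and 92.3 and 82.7 in swn-7, against 560 and 241. AT2G37870, a lipid-transfer-like protein gene, gave 73.2 and 72.0 in clf-28 and 67.9 and 47.4 in swn-7, against 187 and 174. In EXLB1 and AT2G34510 the mutants overlapped each other, in AT2G37870 swn-7 lay lowest, and the limma adjusted p against wild type was 0.210, 0.138 and 0.232.

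MSRB6, which encodes a methionine sulfoxide reductase, gave 86.7 and 78.9 in clf-28, 165 and 177 in swn-7, and 208 and 359 in wild type (limma adjusted p = 0.119). AT3G14200, a DnaJ-domain chaperone gene, gave 12.2 on 1 clf-28 array and the floor on the other, 17.1 and 14.5 in swn-7, and 73.8 and 30.3 in wild type. The annotated pseudogene AT1G43590 was at the floor on both clf-28 arrays and gave 24.4 and 35.6 in wild type (limma adjusted p = 0.0638). AT1G13650 gave 16.7 and 19.3 in clf-28 against 49.2 and 45.7 in wild type, and its swn-7 arrays stood far apart, at 29.8 and the floor.

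**Figure D3:**
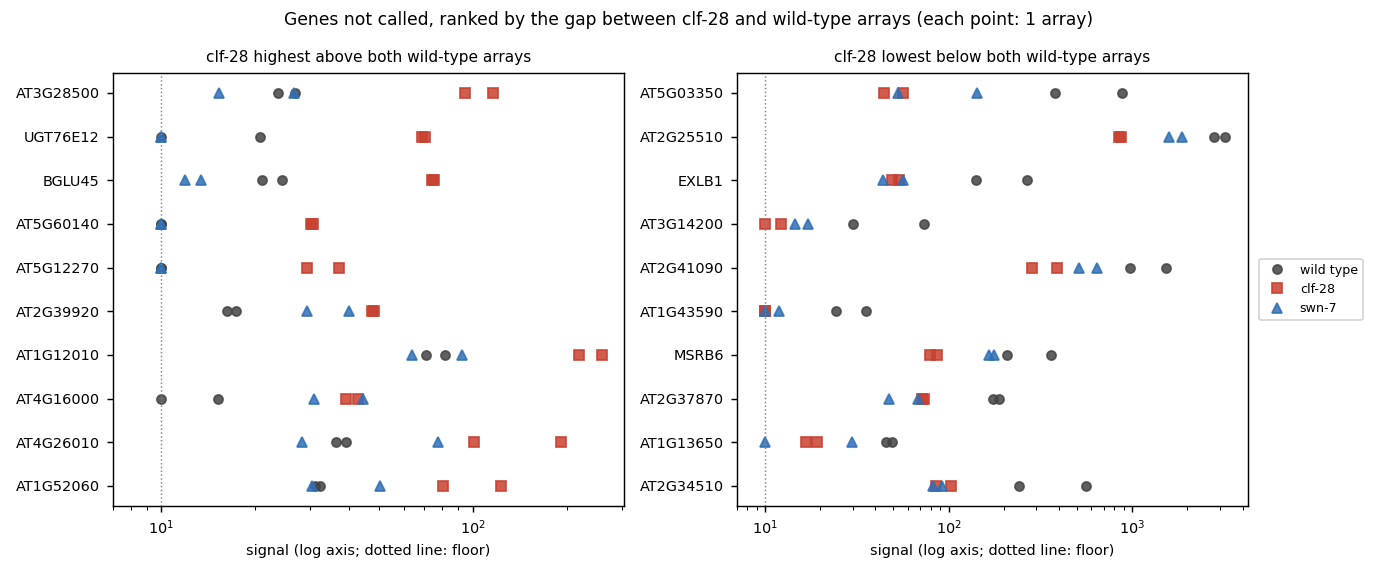
Signal on a log axis for the 10 uncalled genes highest above (left) and the 10 lowest below (right) both wild-type arrays, with 1 point per array for wild type, clf-28 and swn-7, and the floor as a dotted line. On the left, swn-7 lies near wild type for most genes, and near clf-28 for AT4G16000. On the right, swn-7 lies near clf-28 for genes such as EXLB1 and AT2G34510.

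SWEET transporters move sugars across membranes down their gradient, and different members serve the phloem, the vacuole and reproductive organs. Of the 17 SWEET genes in RefSeq, 13 were tested, and SWEET10 was the 1 that passed (0.121% of all probe sets tested did so). The family was chosen because SWEET10 passed, so nothing is read from 1 of 13. The median log2 change of the 13 was -0.12, beside 0.00021 for all probe sets. This median includes SWEET3, SWEET6 and SWEET7, which were tested only because both double-mutant arrays lay above the floor. With wild type and clf-28 at or near the floor, they could show almost no fall, so the median is no measure of the family. SWEET1 gave 135 and 149 in clf-28 against 56.5 and 66.4 in wild type (log2 1.21, SE 0.17, limma adjusted p = 0.0748), with no overlap. SWEET2, of the vacuole, gave 151 and 164 against 80.2 and 96.1 (log2 0.84, SE 0.22, limma adjusted p = 0.256).

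SWEET13, the next gene along the chromosome from SWEET10, went the other way. It gave 20.4 and 15.4 in clf-28 against 53.6 and 44.3 in wild type (log2 -1.46, SE 0.41, limma adjusted p = 0.276), with 34.8 and 13.3 in swn-7. The phloem-loading gene SWEET11 gave 781 and 819 against 1054 and 1112 (log2 -0.44, SE 0.13, limma adjusted p = 0.288). SWEET4 gave 11.6 and 15.3 against 33.7 and 26.7 (log2 -1.17, SE 0.28, limma adjusted p = 0.229). The vacuolar genes SWEET16 and SWEET17 had log2 changes of -0.69 and -0.51. Both clf-28 arrays lay above both wild-type arrays for 3 of the 13 and below for 6, where 23.2% and 20.6% of all probe sets did so.

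SAG29, also called SWEET15, gave 14.6 and 36.8 in clf-28 against 38.3 and 54.6 in wild type (log2 -0.98, SE 0.44, limma adjusted p = 0.420). AtVEX1, also called SWEET5, had 1 array at the floor in wild type and 1 in clf-28 (log2 -0.12). SWEET3, SWEET6 and SWEET7 were at or near the floor on all clf-28 and wild-type arrays.

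**Figure D4:**
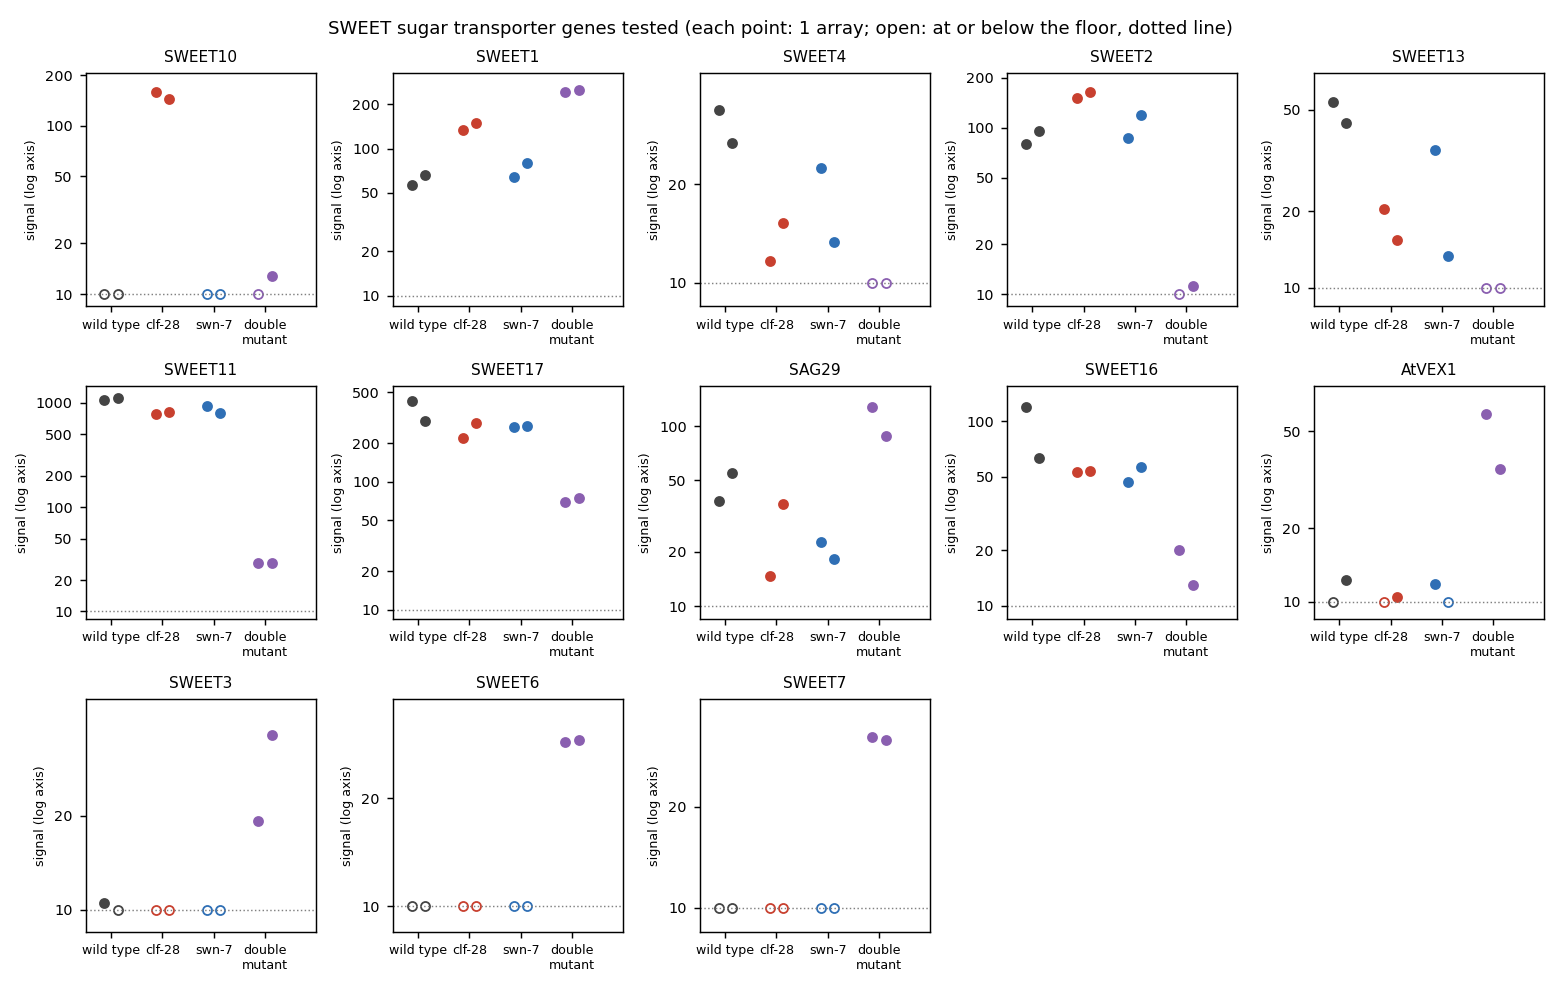
Signal on a log axis for the 13 SWEET genes tested, with 1 point per array, 2 arrays per genotype and the floor as a dotted line; each panel has its own scale. SWEET10 is above the floor in clf-28 at 158 and 143, and its chromosomal neighbour SWEET13 is lower in clf-28, at 20.4 and 15.4, than in wild type.

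The nearest protein-coding genes on either side of the called genes were examined in the RefSeq order. Of these 14 neighbours 4 were tested, and 0 passed (0.121% of all probe sets tested did so). AT1G09510, AT1G03720, AT5G39230 and AT4G01380 were measured but too near the floor to be tested. The other untested neighbours had no probe set of their own in the annotation. No neighbour of AT1G09500, AT1G03710, AT5G39220 or AT5G39520 could therefore be compared. AT5G50780, on the other side of SWEET10, gave 19.0 and 15.8 in clf-28 against 21.5 and 16.6 in wild type (log2 -0.13, SE 0.28). AT3G19540, beside AT3G19550, had a log2 change of -0.10 (SE 0.15), and AT4G01395, beside AT4G01390, one of -0.13 (SE 0.17). SWEET13, described above, was the farthest from 0 of the 4.

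Of a list of 19 flowering-time genes 5 were tested, and 0 passed. Of all probe sets tested 0.121% passed. A count of 0 among so few genes, here and in the lists below, therefore does not show that they were unchanged. The floral promoter AGL24 gave 41.7 and 43.7 in clf-28 against 31.0 and 22.4 in wild type (limma adjusted p = 0.334). AGL19, a promoter of flowering that Polycomb complexes are known to repress, gave 17.1 and 15.1 against 11.1 and the floor (limma adjusted p = 0.258). SMZ, a floral repressor of the AP2 family, gave 29.6 and 29.7 against 52.9 and 34.5 (log2 -0.53, SE 0.24, limma adjusted p = 0.421), and AGL42 (log2 -0.32) and GI (log2 0.07) overlapped between the genotypes. The list median was 0.07.

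ULT1 was the 1 tested gene of a list of 20 for Polycomb and its antagonists. It encodes a trithorax-group factor that opposes CLF at floral genes. It gave 34.0 and 41.6 in clf-28 against 164 and 71.2 in wild type, and 64.1 and 69.0 in swn-7 (log2 -1.52, SE 0.36, limma adjusted p = 0.217). Its difference from swn-7 was -0.82, and the wild-type arrays stood apart by -1.20 on the log2 scale, replicate 2 minus replicate 1.

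Auxin-response genes showed how far a value can rest on 1 wild-type array. GH3.3, which encodes an enzyme that conjugates auxin to amino acids, gave 393 and 397 in clf-28, 245 on wild type replicate 2 and 92.4 on replicate 1. WES1, of the same family, gave 507 and 416 in clf-28, 341 on replicate 2 and 86.3 on replicate 1. IAA29, an auxin-induced repressor gene, gave 119 and 146 in clf-28, 205 on replicate 2 and 30.3 on replicate 1. Wild type replicate 1 was the lowest of the 6 arrays of wild type, clf-28 and swn-7 in all 3 genes, and IAA29 changed sign without it (log2 0.74, and -0.64 without wild type replicate 1). The auxin synthesis gene YUC2 had a log2 change of -0.12. Of 4 tested members 0 passed, and the median was 1.07. EXPA8, an expansin gene, had the same pattern, at 260 and 228 in clf-28, 229 on replicate 2 and 69.2 on replicate 1.

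Among 9 tested seed genes 0 passed, and the median log2 change was -0.68. Several, but not all, were highest on wild type replicate 2. OLEO3, an oleosin gene, was at the floor in clf-28 and gave 13.6 and 25.6 in wild type. PAP85, a vicilin-like storage gene, gave 16.9 and 18.1 in clf-28 against 19.0 and 57.9. The listed genes AT1G47540, AT2G15010 and AT2G28490 were above the floor on wild type replicate 2 alone among the 6 arrays of the 10-day genotypes, at 35.2, 35.0 and 25.8. ICL, of the glyoxylate cycle, gave 13.6 on wild type replicate 2 and 22.8 on swn-7 replicate 2, and was at the floor on the other arrays of these genotypes. LEA4-5 went the other way (log2 0.26), with 12.1 on wild type replicate 1, the floor on replicate 2, and 17.3 on clf-28 replicate 2. LEA18 and BBM stayed at the floor on all 6 arrays, so neither could pass. They, and AT1G47540, AT2G15010 and AT2G28490, were tested only because the double-mutant arrays lay above the floor. The median of the 9 is therefore no measure of the seed genes, and at a floor of 20 it was -0.18. The mean log2 level of the 9 genes was 3.51 and 4.36 on the wild-type arrays and 3.41 and 3.50 on the clf-28 arrays.

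Of a list of 32 photosynthesis genes only 5 were tested. These 5 lay slightly lower in clf-28, with no overlap between the arrays (20.6% of all probe sets did so), and 0 passed. Their median log2 change was -0.25, from -0.35 for SBPASE to -0.13 for LHCB4.2. The nearest clf-28 and wild-type arrays were almost equal for SBPASE and LHCB4.1 (0.012 apart on the log2 scale) and for LHCB4.2 (0.016). They were 0.078 apart for RCA and 0.16 for PRK. RCA gave 4202 and 3808 in clf-28 against 5624 and 4435 in wild type (log2 -0.32, SE 0.29, limma adjusted p = 0.692). PRK, a Calvin-cycle kinase gene, gave 1978 and 1758 against 2216 and 2231 (log2 -0.25, SE 0.26, limma adjusted p = 0.744). The 69 tested plastid-encoded genes had a median of -0.62 and 0 calls. Their mean log2 level was 9.69 and 9.20 in wild type, 9.10 and 8.47 in clf-28, and 9.40 and 6.63 in swn-7, with the swn-7 arrays the farthest apart of these 3 genotypes.

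In the cold and drought list COR15A, which encodes a chloroplast protein that protects membranes in the cold, gave 296 and 192 in clf-28 against 596 and 513 in wild type (log2 -1.22, SE 0.39, limma adjusted p = 0.306). COR15B gave 339 and 155 against 418 and 342 (log2 -0.72), and COR47 overlapped (log2 0.10), so 0 of 3 passed. The root list also had 0 of 3, with EXPA18 at 0.87 (SE 0.32), EXPA7 at 0.71 (SE 0.39) and the receptor-kinase gene AT5G48940 at -0.66 (SE 0.24), all log2 changes. The defence genes PDF1.2b (log2 -0.82), PDF1.2 (log2 -0.15) and THI2.1 (log2 -0.13) lay near or at the floor in clf-28. Each was also at the floor on 1 wild-type array, and THI2.1 was tested only because of the double mutant. The flavonoid genes DFR (log2 -0.35) and UF3GT (log2 -0.31), the glucosinolate gene BCAT4 (log2 -0.42), the leaf-polarity gene YAB3 (log2 0.13), the expansin gene EXPA4 (log2 0.14) and the anther gene EMS1 (log2 0.01) did not pass. Of the 4 reference transcripts, AT4G34270 (log2 0.42, SE 0.18, limma adjusted p = 0.391) was the farthest from 0.

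**Figure D5:**
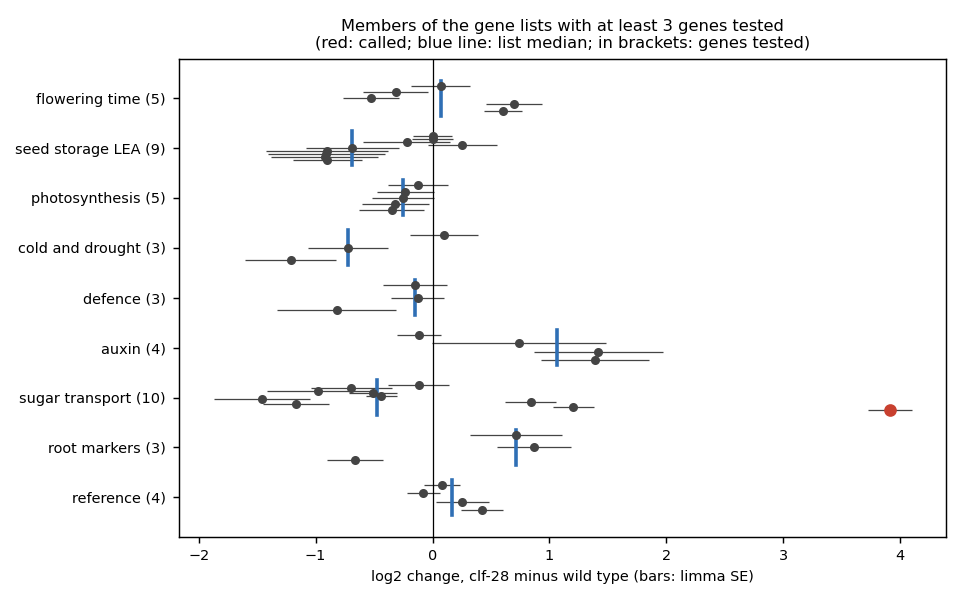
Log2 change of clf-28 against wild type for each tested member of the gene lists with at least 3 tested genes, with limma standard errors as bars and the list median as a blue line. SWEET10, in red, is the 1 member that passed. The auxin median of 1.07 and the seed median of -0.68 are those in which the wild-type arrays differed most. The seed median includes genes tested only through the double mutant and is no measure of that list.

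The calls rest on few arrays. When 1 array was left out, a genotype with 1 array was assumed to vary like the others. SWEET10 passed in all 8 such omissions, in which its wild-type level was at the floor throughout, while AT5G39220, AT5G39520 and AT4G01390 passed in 1 of 8, that of wild type replicate 2. With the double mutant left out of the fit, 8 of the 18 higher calls and 0 of the 3 lower calls remained, and with the 4 compared arrays alone limma called 0 probe sets while 1862 had an unadjusted p below 0.05.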

How the data were processed

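Whole seedlings of 4 genotypes were measured on 2 one-colour Affymetrix ATH1 arrays each. The authors deposited linear signal intensities, with 1 value for each probe set on each array. Per the submitters' processing notes the tools were MAS5 and GCOS, with no version given. The 2% trimmed mean was 100.0 on every array, so no further scaling was applied. Signals below 10 were set to 10, log2 was taken, and the 64 controls were dropped. Testing needed a signal above this floor on at least 2 of 8 arrays.

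Limma 3.58.1 fitted a mean for each genotype over all 8 arrays (R 4.3.3; lmFit, eBayes with an intensity trend, 4 residual and 3.43 prior degrees of freedom). Two-sided p-values were adjusted over the 17332 probe sets by Benjamini-Hochberg, at a threshold of 0.05. The fit was tested on simulated data, with changes added only to probe sets well above the floor and the same spread in every genotype. That test does not cover rises from near the floor or the wider spread of the wild-type arrays. SE is limma's standard error of a log2 change. A fold against a genotype with an array at the floor is a lower bound. The number of arrays limits the precision.

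The platform annotation gives 1 symbol for 13513 of 22810 probe sets, of which 13484 matched RefSeq (TAIR10.1), several for 503, and does not list 8794. The files name no genome build, and coordinates and sequences are not printed. Of 18 gene lists, the members of 3 (floral MADS-box, clock and heat shock) were not tested, because they were not named or lay at the floor, and plastid genes were taken by chromosome.

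Genes were named by rule: all called probe sets with 1 gene, the 10 uncalled genes farthest above and below both wild-type arrays, the called or else the 3 lowest-p members of each list, the SWEET family and the neighbours of called genes. Where probe sets share a gene, the one with the highest mean stands for it. Further list members were added after their values were seen. Members and lists were chosen with earlier results of these data known. Alternatives were other floors, scalings, filters and eBayes settings, other sets of arrays, the replicate number as a block and leaving out each array.

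The replicate differences of 2 genotypes correlated at -0.08 to 0.22 across probe sets, with the highest value for clf-28 with swn-7. These correlations cannot show whether arrays of the same replicate number were handled together. The main fit did not pair the arrays.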

Additional observations from a re-analysis of the deposited data

Results flagged for a closer look

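Among the 7 named genes, 3 passed the test of the interaction, the change from swn-7 to the double mutant less the change from wild type to clf-28. The interaction was -3.74 for SWEET10 (log2, SE 0.27), -3.38 for AT5G39520 (SE 0.48) and -2.81 for AT3G19550 (SE 0.30). It did not pass for AT1G09500 (log2 0.26), AT1G03710 (log2 0.70), AT5G39220 (log2 0.55) and AT4G01390 (log2 -0.55). These genes were chosen by their change from wild type to clf-28, which enters the interaction with the opposite sign, so the values are a description and not a test of them. Of all probe sets tested, 31% passed, and nothing particular to these genes is read from 3 of 7. The double mutant was 12 days old and the other genotypes 10, so the interaction and age cannot be told apart, and values at the floor enter it.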

How the results depend on the processing

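The direction of all 7 named calls held in 22 alternatives each. SWEET10, AT1G09500 and AT3G19550 passed in 20 of 22, AT1G03710 in 19, AT5G39220 in 12, AT5G39520 in 11 and AT4G01390 in 9. The number of called rises (18) and falls (3) was less steady. With a constant added in place of the floor there were 42 calls, 29 higher and 13 lower, and 36 against swn-7. Falls numbered 1 (floor of 5), 6 (floor of 20), 9 (signals unfloored), 6 with quantile normalization, with equal medians, with no trend and with robust eBayes, 7 without the double mutant, and 8 with no filter or with the filter on 6 arrays. With the compared arrays only there were 0 calls in either direction (1862 unadjusted). Calls against swn-7 numbered 30 with the filter on 6 arrays and with robust eBayes, and 11 without the double mutant. With the replicate block there were 23 calls against wild type, 19 higher and 4 lower, and 11 against swn-7. Of the 21 calls, 17 were kept under the block, including 1 of the 3 falls. With no filter 9 of the 18 rises and 0 of the 3 falls were kept. Leaving out 1 array gave 2 to 584 calls, with 2 to 183 higher and 0 to 401 lower, and 3 to 24 against swn-7. The counts of every pair at least 2-fold apart (61 and 48) became 97 and 78 at a floor of 5, 236 and 241 at 1.5-fold, and 23 and 10 at 3-fold. Among these 8 omissions the lowest count of calls was without clf-28 replicate 2, and the highest without wild type replicate 2. It was 22 without wild type replicate 1, 8 without that of clf-28, 19 without either double-mutant array and 7 when either swn-7 array was omitted.

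Some uncalled genes changed sign when 1 array was left out, and their log2 values over the 8 omissions ranged as follows. IAA29 went from -0.64 (without wild type replicate 1) to 2.12, YAB3 from -0.088 (same omission) to 0.35, EXPA4 from -0.047 (same) to 0.32 and AT4G26410 from -0.024 (same) to 0.54. COR47 went from -0.28 (without wild type replicate 2) to 0.47, and PDF1.2b from -1.69 to 0.050 (same omission). EMS1 went from -0.28 (without clf-28 replicate 1; -0.031 without wild type replicate 2) to 0.30. AT4G01395 went from -0.28 to 0.022 (without clf-28 replicate 1), and AT5G50780 from -0.31 to 0.061 (without wild type replicate 1; 0.0078 without clf-28 replicate 2). The causes were not tested, except that leaving out arrays fits fewer samples.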
